A study of Mus musculus with 61 samples.

Results

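The 8 genes described here were chosen by name, as markers of neurons that make, store, recapture or are specified to use dopamine: Th, Ddc, Slc6a3, Slc18a2, Nr4a2, Pitx3, Chrna6 and Aldh1a1. Their probes were found through the RefSeq accession on the array, and they are 8 of 16355 genes named in that way. Not all had the same profile: Nr4a2 peaked in lateral sagittal fractions (S1 and So2), and Aldh1a1 in posterior coronal ones (C4 and Co1). Where a gene had more than 1 probe, which was so for Ddc and Slc18a2, the brighter probe on average was taken and the other served as a check. All 8 genes had a probe that entered the tests, and for 7 of them it was well above background on all 61 arrays. The Chrna6 probe was well above background on 35 arrays.

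The 6 mouse brains gave 61 fractions, each a slab of 1 mm made of 200 serial sections and hybridized to an array of its own. The mice were C57BL/6J males of 8 weeks, with no treatment named in the labels, and each brain was cut in a single plane. The C and Co brains were cut coronally (13 and 16 fractions, numbered from posterior to anterior), S and So sagittally (9 and 10, from left to right), and H and Ho horizontally (6 and 7, from dorsal to ventral), with Co, So and Ho cut slightly obliquely. The study matched 56 of the fractions in 28 pairs of similar position, called here c1 to c13, s1 to s9 and h1 to h6, and Co1, Co13, Co16, So1 and Ho1 have no partner. A fraction holds every structure at its level, so that a midbrain fraction also holds cortex and hippocampus, and in such bulk samples fewer cells of a type and less RNA per cell cannot be told apart.

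Dopamine is made from tyrosine in a pair of steps, the first by tyrosine hydroxylase (Th) and the second by aromatic amino acid decarboxylase (Ddc). It is loaded into vesicles by the vesicular monoamine transporter (Slc18a2) and taken back from the cleft by the dopamine transporter (Slc6a3). Most dopamine neurons of the rodent brain lie in the substantia nigra and ventral tegmental area of the midbrain, further groups lie in the hypothalamus, and the periglomerular interneurons of the olfactory bulb form another population. Th is also used by noradrenaline neurons, and Ddc and Slc18a2 also by serotonin and noradrenaline neurons.

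The sequences upstream of the genes that make and store the transmitter are shown because Ddc and Slc18a2 had the most similar profiles of all pairs of members, and because Th was less like either. Each is the run of 250 bases before the start of the gene in RefSeq (GRCm38.p6), read on the strand of the gene. The intervals are chr7:142899996-142900245 on the minus strand for Th, chr11:11898145-11898394 on the minus strand for Ddc and chr19:59260628-59260877 on the plus strand for Slc18a2. Capitals mark matches to 3 motifs searched on both strands, AAAGGTCA (NBRE, the site of Nr4a2 and its relatives), TAATCC (the core bound by bicoid-type homeodomain factors such as Pitx3) and TGACGTCA (the cyclic AMP response element, CRE).
Th: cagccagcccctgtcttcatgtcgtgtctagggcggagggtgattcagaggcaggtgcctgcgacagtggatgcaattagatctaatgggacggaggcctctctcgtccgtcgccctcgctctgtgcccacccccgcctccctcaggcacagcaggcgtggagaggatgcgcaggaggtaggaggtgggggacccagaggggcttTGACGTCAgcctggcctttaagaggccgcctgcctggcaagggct
Ddc: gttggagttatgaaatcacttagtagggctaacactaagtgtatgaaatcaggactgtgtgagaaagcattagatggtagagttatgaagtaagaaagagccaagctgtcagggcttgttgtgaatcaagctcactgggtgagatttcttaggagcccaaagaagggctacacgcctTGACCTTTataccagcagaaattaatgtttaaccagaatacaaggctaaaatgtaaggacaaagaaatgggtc
Slc18a2: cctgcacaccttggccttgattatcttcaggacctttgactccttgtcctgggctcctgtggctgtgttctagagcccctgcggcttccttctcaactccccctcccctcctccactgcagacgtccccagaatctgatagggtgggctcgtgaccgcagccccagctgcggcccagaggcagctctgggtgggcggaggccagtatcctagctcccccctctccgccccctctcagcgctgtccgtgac
The Th sequence held the CRE at position -45, counted back from the start of the gene, and the Ddc sequence held the NBRE, as its reverse complement, at position -73. Ddc has another RefSeq window, chr11:11890409-11890658 on the minus strand, which is not shown and held none of the motifs. Which start of Ddc was used in these fractions was not tested. The Slc18a2 window held none of the 3 motifs. Of 32851 windows of the same length in RefSeq, 1.55% held the CRE, 1.34% the NBRE and 6.25% the bicoid core. RefSeq windows were found for 7 of the 8 members, 9 windows in all, and the other 7 windows held no match. A match of letters is a description of the window and not a measured binding site.

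Values are given as log2 intensity minus the 75th percentile of the array, called the level, so that 0 is the 75th percentile. Levels of different probes are not set against each other. The arrays had 57.9% to 73.1% of their probes well above background, a signal at the 75th percentile of 737 to 1919 units, and 0 saturated spots. They lay on 16 slides, which mostly carried fractions cut next to each other, so that slide and position are partly confounded. Markers bore out the stated direction of the coronal series: Tbx21, a gene of olfactory bulb mitral and tufted cells, peaked in C13 and Co15, and Hcrt, the orexin gene of the hypothalamus, in C8 and Co9. Scaling to the median of each array instead of the 75th percentile moved the median difference of all probes from 0.12 to -0.01 in the hindbrain comparison and from 0.00 to -0.10 in the midline comparison described below.

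All 8 members varied over the 28 pairs (moderated F test in limma, Benjamini-Hochberg adjusted p under 0.05), as did 61.2% of all probes tested. Slc6a3 had the largest F of the members, 32.9 (adjusted p = 1.12e-13, limma), and Nr4a2 the smallest, 2.21 (adjusted p = 0.032, limma). The level of Slc6a3 spanned 10.5 between its lowest and highest fraction, that of Th 8.86 and that of Pitx3 2.80. The call of Nr4a2 was lost without the array S1 (adjusted p = 0.0577) or C1 (adjusted p = 0.0644, both limma). Within single planes Nr4a2 did not pass (adjusted p = 0.29 coronal, 0.165 sagittal and 0.183 horizontal, limma). Pitx3 and Aldh1a1 did not pass in the sagittal plane (adjusted p = 0.0625 and 0.0788) or the horizontal plane (0.0514 and 0.205, limma).

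**Figure D1:**
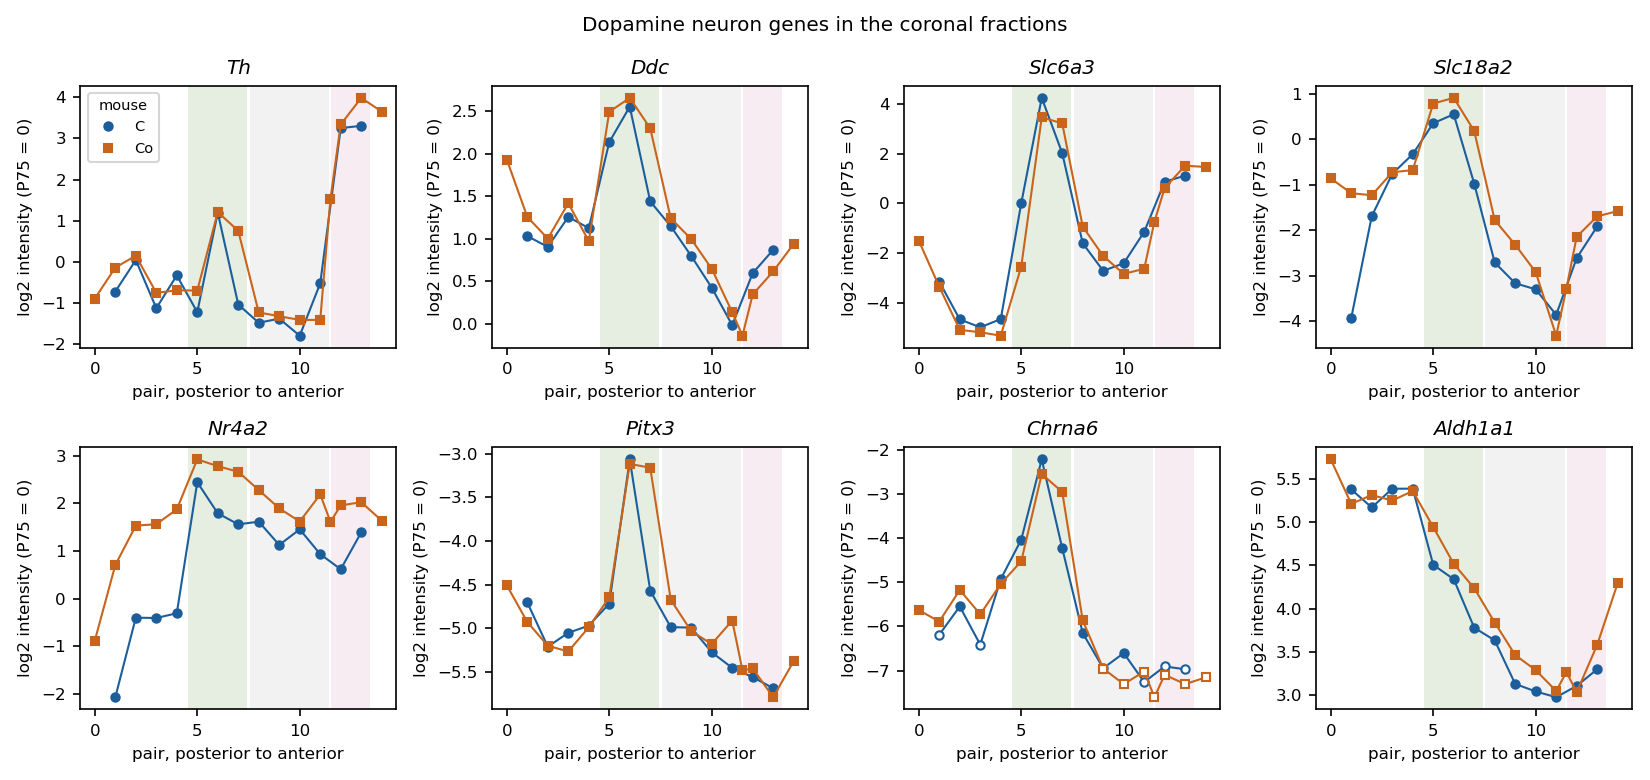
Level of each gene (log2 intensity, 75th percentile of the array = 0) in the coronal fractions, posterior to anterior, for C (circles) and Co (squares); open symbols were not well above background, and Co1, Co13 and Co16, which have no partner, stand before c1, between c11 and c12, and after c13. Green marks c5 to c7, grey c8 to c11 and pink c12 and c13; Slc6a3, Pitx3 and Chrna6 peaked in pair c6, and Th rose to 3.98 in Co15.

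The first comparison asked how the members stood at the level of the midbrain, pairs c5 to c7, against the forebrain pairs c8 to c11. Of the 8 members, 7 were higher and 0 lower (limma, also 0 at an unadjusted p under 0.05), where 5.22% of all probes tested were called higher and 6.3% lower. The median difference over the members was 1.47 (log2), against -0.01 over all probes. Slc6a3 and Slc18a2 had the largest differences of the members with a reference above background, and Nr4a2 was the member that did not pass.

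Slc6a3, the transporter that defines the reuptake of dopamine, stood at 0.01 in C5, 4.25 in C6 and 2.02 in C7, and at -2.54 in Co6, 3.46 in Co7 and 3.22 in Co8. The level thus rose steeply over a single slab in both brains, with Co8 almost as high as Co7 while C7 was well below C6. In the forebrain pairs it lay between -2.83 and -0.93. The difference was 3.78 ± 0.38 (SE, log2, 13.8-fold, 6 against 8 arrays, adjusted p = 2.0e-08, limma), and it was 4.06 in the C brain and 3.51 in the Co brain. When fractions of equal number in C and Co were paired instead, which puts Co8 among the forebrain fractions, the differences of Slc6a3 (1.63, adjusted p = 0.325), Th (0.84, adjusted p = 0.415) and Pitx3 (0.66, adjusted p = 0.114) did not pass (limma).

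Chrna6, a nicotinic receptor subunit found in midbrain dopamine neurons and in the visual system, stood at -4.04, -2.22 and -4.23 in C5 to C7 and at -4.53, -2.56 and -2.96 in Co6 to Co8. All 6 of these arrays were well above background, but only 3 of the 8 forebrain arrays were, and the groups did not overlap. The difference was 3.34 ± 0.21 (SE, log2, adjusted p = 5.71e-12, limma), a value for which most of the reference arrays give only an upper limit of the level.

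Slc18a2, which fills the vesicles, stood at 0.36, 0.55 and -0.97 in C5 to C7 and at 0.79, 0.92 and 0.19 in Co6 to Co8. Unlike Slc6a3, it was nearly as high in c5 as in c6. It lay between -4.32 and -1.78 in the forebrain pairs, below every midbrain array, and the difference was 3.35 ± 0.28 (SE, log2, 10.2-fold, adjusted p = 5.41e-10, limma). The other probe of the gene gave 3.25 ± 0.26.

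Ddc, the decarboxylase, followed Slc18a2 with a smaller range, at 2.14, 2.55 and 1.44 in C5 to C7 and 2.49, 2.66 and 2.30 in Co6 to Co8. The forebrain arrays lay between -0.02 and 1.24, again with no overlap. The difference was 1.59 ± 0.12 (SE, log2, 3.02-fold, adjusted p = 1.89e-10, limma), and the other probe gave 1.76 ± 0.15.

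Th, the rate-limiting enzyme, was high in C6 (1.20), Co7 (1.21) and Co8 (0.75), but in C5 (-1.22), C7 (-1.03) and Co6 (-0.70) it lay within the range of the forebrain pairs, -1.79 to -0.52. The groups therefore overlapped, and the difference was 1.35 ± 0.29 (SE, log2, 2.55-fold, adjusted p = 0.00186, limma). Against all other coronal pairs, which include the olfactory bulb, it was 0.05 (adjusted p = 0.931, limma).

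Pitx3, a homeodomain factor required by nigral dopamine neurons, stood at -3.06 in C6, -3.12 in Co7 and -3.16 in Co8. In C5, C7 and Co6 it lay between -4.72 and -4.57, which overlaps the forebrain range of -5.46 to -4.67. The difference was 1.19 ± 0.16 (SE, log2, adjusted p = 4.7e-06, limma). Aldh1a1, a retinaldehyde dehydrogenase of a ventral subset of nigral neurons and of other cells, fell from 4.51 in C5 to 2.97 in C11 and from 4.94 in Co6 to 3.05 in Co12, with no midbrain peak, and was higher again toward the rostral end, at 3.30 in C13 and 4.29 in Co16. It differed by 1.09 ± 0.13 (SE, log2, adjusted p = 6.52e-07, limma), and against all other coronal pairs by 0.29 (adjusted p = 0.0684, limma).

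Nr4a2, the nuclear receptor Nurr1, had levels of 2.44, 1.79 and 1.56 in C5 to C7 and 2.92, 2.78 and 2.66 in Co6 to Co8, against 0.93 to 2.28 in the forebrain pairs. The difference of 0.72 ± 0.42 (SE, log2) did not pass (adjusted p = 0.328, limma). It passed against all other coronal pairs (1.28, adjusted p = 0.0114, limma) and with the mouse as a block (0.72 ± 0.25, adjusted p = 0.0384, limma), since Nr4a2 was higher in Co than in C in 13 of 13 pairs, by 1.25 ± 0.76 (SD, log2). The C and Co brains differed in mouse, in cutting angle and in scan day, which cannot be told apart here.

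With the slide as a fixed block, 4 of the 8 members were called at the midbrain level, where 200 of 36532 probes were called higher and 190 lower. Th (1.24, adjusted p = 0.72), Pitx3 (1.15, adjusted p = 0.313) and Aldh1a1 (1.01, adjusted p = 0.109) lost their calls (limma). On the slide that held C5 to C8, every member was higher in C5 to C7 than in C8, by 0.31 for Nr4a2 up to 3.69 for Slc6a3.

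Markers of other monoamine neurons moved along the same axis. The summed level of 4 serotonin neuron genes lay between -1.84 and 1.99 in c5 to c7 and between -4.02 and -3.28 in c8 to c11, and all 4 genes were called higher, of which 1 was well above background on all 14 arrays. It peaked in C5 and Co6, which is 1 pair posterior to the peak of Slc6a3. The summed level of 4 noradrenaline neuron genes peaked in C4 (0.52) and Co5 (0.20). In the Co brain it was nearly as high in Co6 (0.13), which belongs to pair c5 of the midbrain group, while C5 stood at -1.95. At the midbrain level 2 of the 4 were called higher, of which 1 was well above background on all 14 arrays. Of 4 meningeal genes, 3 were called higher at this level. Of 7 hypothalamic neuron genes, 0 were called higher and 5 lower, and all 5 striatal medium spiny neuron genes were lower (6.3% of all probes). The summed hypothalamic level was 3.39 in C7 and highest in C8 (5.42) and Co9 (6.01), which belong to the forebrain reference. The part of these cells in the values of Ddc, Slc18a2 and Th was not tested.

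The hindbrain pairs c1 to c4 were set against the same forebrain pairs, so that the 2 comparisons share their reference. Of the members, 5 were higher and 2 lower, where 28.6% of all probes were called higher and 20.5% lower. The set divided here: Slc6a3 and Nr4a2 were lower than in the forebrain, Pitx3 did not differ, and the others were higher.

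Slc6a3 fell to between -5.32 and -3.14 in the hindbrain pairs, below every forebrain array, with a difference of -2.50 ± 0.35 (SE, log2, adjusted p = 4.55e-07, limma). Slc18a2, in contrast, stood at -3.93, -1.69, -0.76 and -0.32 in C1 to C4 and at -1.18, -1.23, -0.72 and -0.67 in Co2 to Co5. With the exception of C1 these lie above the whole forebrain range, and the difference was 1.73 ± 0.26 (SE, log2, adjusted p = 1.27e-06, limma).

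Aldh1a1 had its highest levels here, between 5.17 and 5.39 in the 8 arrays and 5.73 in Co1. The difference of 2.01 ± 0.12 (SE, log2, 4.01-fold) was the largest increase of the members in this comparison (adjusted p = 7.72e-15, limma). Th was higher by 0.87 ± 0.27 (adjusted p = 0.00817), Ddc by 0.45 ± 0.12 (adjusted p = 0.00161) and Chrna6 by 1.15 ± 0.20 (SE, log2, adjusted p = 9.86e-06, all limma). Chrna6 was well above background on 6 of these 8 arrays and on 3 of the 8 forebrain ones, which limits its value. With fractions of equal number paired, Th (0.58, adjusted p = 0.37), Ddc (0.30, adjusted p = 0.268) and Chrna6 (0.57, adjusted p = 0.226) did not pass (limma). With the slide as a random block, Th (0.67, adjusted p = 0.254) and Ddc (0.37, adjusted p = 0.12) did not pass either (limma).

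Nr4a2 was lower, with a log2 difference of -1.32 ± 0.39 (SE, adjusted p = 0.00502, limma), and the mice differed in size, with -2.07 in C and -0.58 in Co. Over c2 to c4 alone the difference was -0.99 and did not pass (adjusted p = 0.0504, limma). All 4 noradrenaline and all 4 serotonin neuron genes were called higher, of which 1 and 0 were well above background on all 16 arrays, and the summed noradrenaline level lay between -2.88 and 0.52 against -4.97 and -4.00 in the forebrain. Meningeal genes (4 of 4) and endothelial genes (4 of 4) were called higher as well. All 5 striatal medium spiny neuron genes were called lower. Of 6 hypothalamic neuron genes that were well above background on all 16 arrays, 5 were called lower. The part of these cell types in the members' values was not tested. No slide held both hindbrain and reference fractions. In the fit with slide as a fixed term 1 member, Aldh1a1, stayed called, where 2499 of 36537 probes were called higher and 2837 lower. Th turned to -0.08 (adjusted p = 0.981) and Ddc to -0.17 (adjusted p = 0.891, limma).

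At the rostral end, pairs c12 and c13 with the olfactory bulb, Th and Slc6a3 were the members with large differences from the same forebrain pairs. Of the members, 3 were higher and 1 was lower, where 17.4% of all probes were called higher and 19.2% lower. Th stood at 3.25 in C12, 3.31 in C13, 3.34 in Co14 and 3.98 in Co15, and at 3.65 in the unpaired Co16. These were its highest levels in the coronal series, above C6 and Co7, and the difference from the forebrain pairs was 4.79 ± 0.33 (SE, log2, 27.6-fold, 4 against 8 arrays, adjusted p = 6.93e-13, limma).

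Slc6a3 stood at 0.87 and 1.12 in C12 and C13 and at 0.63 and 1.52 in Co14 and Co15. It was thus above every forebrain array but below its own midbrain peak, the reverse of the order seen for Th. The difference was 3.08 ± 0.43 (SE, log2, 8.45-fold, adjusted p = 7.55e-07, limma). With fractions of equal number paired, which replaces Co14 and Co15 with Co12 and Co13 and takes Co8 to Co11 as forebrain fractions in place of Co9 to Co12, Slc6a3 (0.97, adjusted p = 0.665) did not pass and Slc18a2 turned to -0.55 (adjusted p = 0.616, limma).

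Slc18a2 was higher by 0.95 ± 0.32 (SE, log2, adjusted p = 0.0171, limma), a call lost without Co14 (0.84, adjusted p = 0.086) or Co15 (0.90, adjusted p = 0.062). Pitx3 was lower, with a difference of -0.56 ± 0.18 (adjusted p = 0.0159, limma), lost without C12 (-0.54, adjusted p = 0.057) or Co15 (-0.54, adjusted p = 0.0555), and after normexp background correction and quantile normalization (-0.18, adjusted p = 0.175). Ddc (-0.07 ± 0.14, adjusted p = 0.787), Aldh1a1 (-0.05 ± 0.15, adjusted p = 0.855) and Nr4a2 (-0.14 ± 0.47, adjusted p = 0.864) did not pass (SE, log2, limma). None of the 4 arrays had Chrna6 well above background.

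Under a fixed slide block, the rostral calls of Slc18a2 (0.70, adjusted p = 0.472) and Pitx3 (-0.58, adjusted p = 0.346) were lost (limma). Pitx3 also lost its call with fractions of equal number paired (-0.57, adjusted p = 0.241, limma). On the slide that held C9 to C12, Th was higher in C12 than in C9 to C11 by 4.48 and Slc6a3 by 2.96. Meningeal genes also rose at this end, where 4 of 4 were called higher, and their summed level was highest in Co16 (5.90). Of 4 endothelial genes, 3 were called higher. Mitral and tufted cell genes of the olfactory bulb had larger differences, with 5 of 5 called higher, a median difference of 6.59 (log2) and a summed level of 6.36 to 6.91 in the 4 arrays against 0.27 to 2.83 in the forebrain pairs. Of these 5 genes, 4 were well above background on all 12 arrays. The part of these cells in the levels of the members was not tested.

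**Figure D2:**
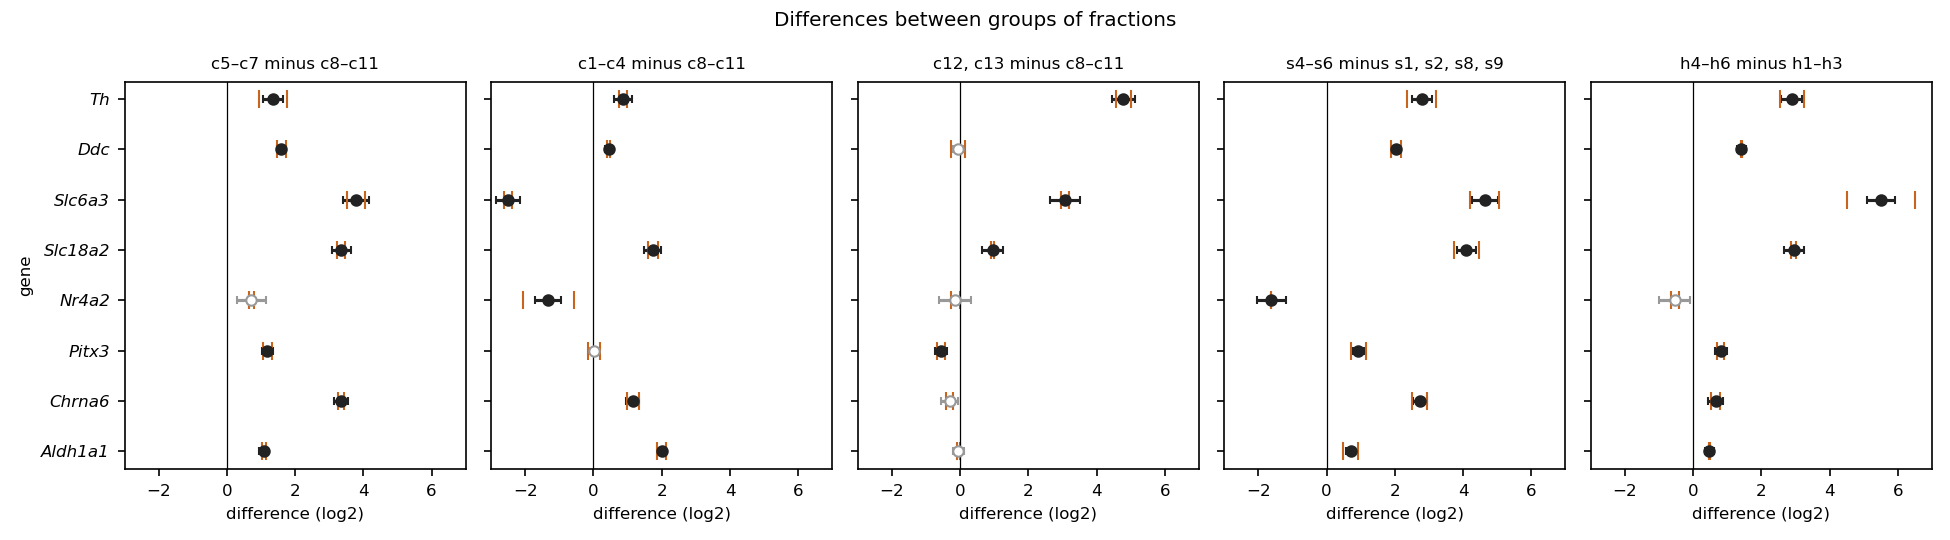
Difference (log2) of each gene between groups of fractions, as the limma estimate with its SE (circle and bar) and the value in each of the 2 mice of the plane (orange ticks); filled black circles passed an adjusted p of 0.05, open grey ones did not. Th had its largest difference at the rostral end (4.79) and Slc6a3 in the horizontal plane (5.50).

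Across the sagittal plane, the pairs s4 to s6 next to the midline were set against the lateral pairs s1, s2, s8 and s9. Of the members, 7 were higher and 1 was lower, where 10.5% of all probes were called higher and 9.09% lower. This was the comparison in which all 8 members passed, also with the slide as a fixed block, although with s5 alone against s1 and s9 Nr4a2 (-1.58, adjusted p = 0.127) and Pitx3 (0.68, adjusted p = 0.0843) did not (limma). Under the fixed slide block 8288 of 36569 probes were called higher and 7001 lower. On each of the 4 slides that held both kinds of fraction the 7 were higher and Nr4a2 was lower.

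Slc6a3 stood at 2.96, 1.35 and 2.92 in S4, S5 and S6 and at 2.51, 1.86 and 3.01 in So5, So6 and So7. The central fraction was the lowest of the 3 in both brains, with a difference from the mean of its neighbors of -1.59 in S and -0.90 in So (log2). The lateral arrays ranged from -4.49 to 0.87, and the difference from them was 4.64 ± 0.38 (SE, log2, 24.9-fold, 6 against 8 arrays, adjusted p = 1.73e-10, limma).

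Chrna6, Pitx3 and Aldh1a1 were also lower in the central fraction than the mean of its neighbors in both brains, with differences of -0.50 and -0.19 for Chrna6, -0.75 and -0.06 for Pitx3 and -0.42 and -0.09 for Aldh1a1 (log2, S and So). Ddc and Slc18a2 showed the opposite, at 0.37 and 0.28 for Ddc and 0.33 and 0.16 for Slc18a2, and Th (-0.41 and 0.16) and Nr4a2 (0.30 and -0.14) differed in sign between the brains. These are single arrays, so the shape of the central peak carries no test. The summed level of the serotonin neuron genes was highest in S5 (1.36) and So6 (1.08), that is in the same central fractions. That of the noradrenaline neuron genes was lower there than in the neighbors. It stood at -2.73 in S5 against -0.48 in S4 and S6, and at -2.49 in So6 against -0.70 in So5 and -0.79 in So7. At the midline, 3 of the 4 serotonin neuron genes were called higher, but 0 of the 4 were well above background on all 14 arrays, which limits these calls. The part of these cell types in the levels of the members, Ddc and Slc18a2 among them, was not tested.

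Slc18a2 differed by 4.10 ± 0.28 (adjusted p = 4.35e-12), Th by 2.79 ± 0.29 (adjusted p = 1.91e-08) and Ddc by 2.05 ± 0.12 (SE, log2, adjusted p = 6.02e-13, all limma). Chrna6 was well above background on all 6 midline arrays and on none of the 8 lateral ones, so that its ratio is a bound, at least 6.55-fold, computed against the lowest signal well above background on each lateral array or the probe's own signal where that was higher (adjusted p = 5.32e-11, limma). Pitx3 differed by 0.93 ± 0.16 (adjusted p = 6.21e-05) and Aldh1a1 by 0.70 ± 0.13 (SE, log2, adjusted p = 0.000168, limma).

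Nr4a2 went the other way. Its levels were 3.24 in S1 and 2.97 in S9, the outermost fractions of the S brain, and 1.12 to 1.46 in S4 to S6. In the So brain it was 2.77 in So2 and 0.38 to 0.56 in So5 to So7, but the outermost fractions So1 (1.14) and So10 (1.03) were lower than their neighbors. The difference was -1.62 ± 0.42 (SE, log2, adjusted p = 0.00498, limma), with -1.62 in S and -1.61 in So. Over the sagittal fractions its level correlated with those of the other 7 members at r between -0.88 and -0.78, a description over 19 arrays of 2 mice that share slides.

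**Figure D3:**
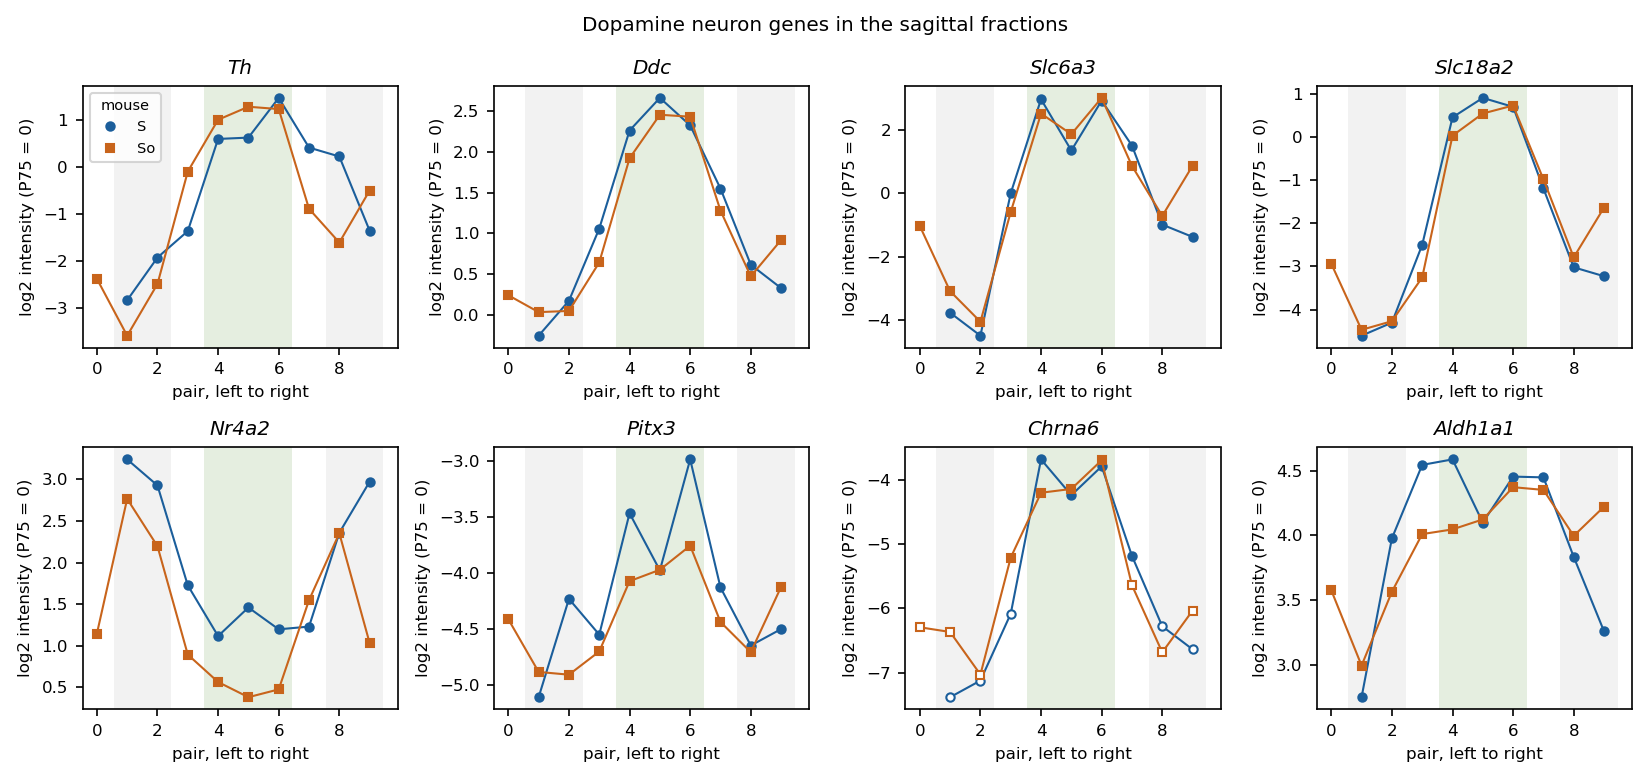
Level of each gene (log2 intensity, 75th percentile of the array = 0) in the sagittal fractions, left to right, for S (circles) and So (squares, with the unpaired So1 before s1); green marks s4 to s6, grey the lateral pairs, and open symbols were not well above background. Slc6a3 dipped in the central fraction of both brains, to 1.35 and 1.86, and Nr4a2 was highest in lateral fractions, though not in the outermost ones of So.

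In the horizontal plane, the ventral pairs h4 to h6 were set against the dorsal pairs h1 to h3. Of the members, 7 were higher and 0 lower (limma, also 0 at an unadjusted p under 0.05), where 7.4% of all probes were called higher and 5.16% lower. Slc6a3 had the largest difference of the members, and Nr4a2 did not pass.

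Slc6a3 stood at -6.28, -5.04 and -2.01 in H1 to H3 and at 2.65, 2.52 and 0.97 in H4 to H6. In the Ho brain it was -4.13, -4.10 and -0.45 in Ho2 to Ho4 and 2.43, 2.72 and -0.32 in Ho5 to Ho7. The step from h3 to h4 was thus steep in both brains, and the groups did not overlap, though Ho7 was close to Ho4. The difference was 5.50 ± 0.41 (SE, log2, 45.1-fold, 6 against 6 arrays, adjusted p = 5.02e-11, limma).

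Slc18a2 differed by 2.95 ± 0.30 (adjusted p = 2.51e-08), Th by 2.89 ± 0.31 (adjusted p = 8.77e-08) and Ddc by 1.42 ± 0.13 (SE, log2, adjusted p = 6.41e-09, all limma). Th and Slc18a2 were both highest in h4 and h5 and lower again in h6. Pitx3 differed by 0.81 ± 0.17 (adjusted p = 0.00143) and Aldh1a1 by 0.48 ± 0.14 (SE, log2, adjusted p = 0.0208, limma). The call of Aldh1a1 was lost without any 1 of H1, H2, H3, Ho5, Ho6 and Ho7 (0.37 to 0.45, adjusted p from 0.0627 to 0.113, limma). Nr4a2 differed by -0.54 ± 0.45 (SE, log2, adjusted p = 0.56, limma).

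Chrna6 had a second rise in the dorsal fractions, though not in the topmost Ho1 (-6.49), where it was not well above background. It stood at -5.41 in H1, -4.71 in H2 and -6.06 in H3, and at -5.11, -5.42 and -5.87 in Ho2 to Ho4, while its ventral peak was -4.12 in H4 and -3.98 in Ho6. In Ho7, one of the ventral fractions, it was at -6.87 and not well above background, so that the ventral mean includes a level known only as an upper limit. The difference of 0.66 ± 0.23 (SE, log2) only just passed (adjusted p = 0.0497, limma), and leaving out each of the 56 arrays in turn gave 0.43 to 0.89 (adjusted p from 0.00623 to 0.25), with the call lost in 42 cases. For h5 and h6 against h1 and h2 it was 0.04 (adjusted p = 0.986, limma). Chrnb3, the subunit often found with it in receptors, peaked dorsally in this plane, in H2 and Ho1.

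With the slide as a fixed block, 3 members were called, where 798 of 36554 probes were called higher and 604 lower. Th (2.63, adjusted p = 0.0694) and Pitx3 (0.84, adjusted p = 0.327) were among those lost (limma). Pairing fractions of equal number ended the calls of Pitx3 (0.82, adjusted p = 0.0673), Chrna6 (0.93, adjusted p = 0.252) and Aldh1a1 (0.35, adjusted p = 0.344, all limma). With the slide as a random block, Aldh1a1 (0.46, adjusted p = 0.0535) and Chrna6 (0.80, adjusted p = 0.123) did not pass (limma). On the slide that held H3 to H6, Slc6a3 was higher in H4 to H6 than in H3 by 4.05 and Th by 0.71. All 7 hypothalamic neuron genes were called higher both at the midline and ventrally. Of these, 5 were well above background on all 14 arrays of the midline comparison and 7 on all 12 of the ventral one. Of the 4 noradrenaline neuron genes, 3 were called higher at the midline and 3 ventrally, and of the 5 mitral and tufted cell genes tested, 5 and 4. By the same mark, 0 and 1 of the noradrenaline neuron genes were well above background on all arrays at the midline and ventrally, which limits their calls. For the mitral and tufted cell genes the numbers were 4 and 5. Ventrally, 2 of 4 serotonin neuron genes, 4 of 5 striatal medium spiny neuron genes and 2 of 4 meningeal genes were called higher as well. Of these serotonin neuron genes, Slc6a4 was below the background mark on some of the 12 arrays. Their part in the levels of the members was not tested.

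**Figure D4:**
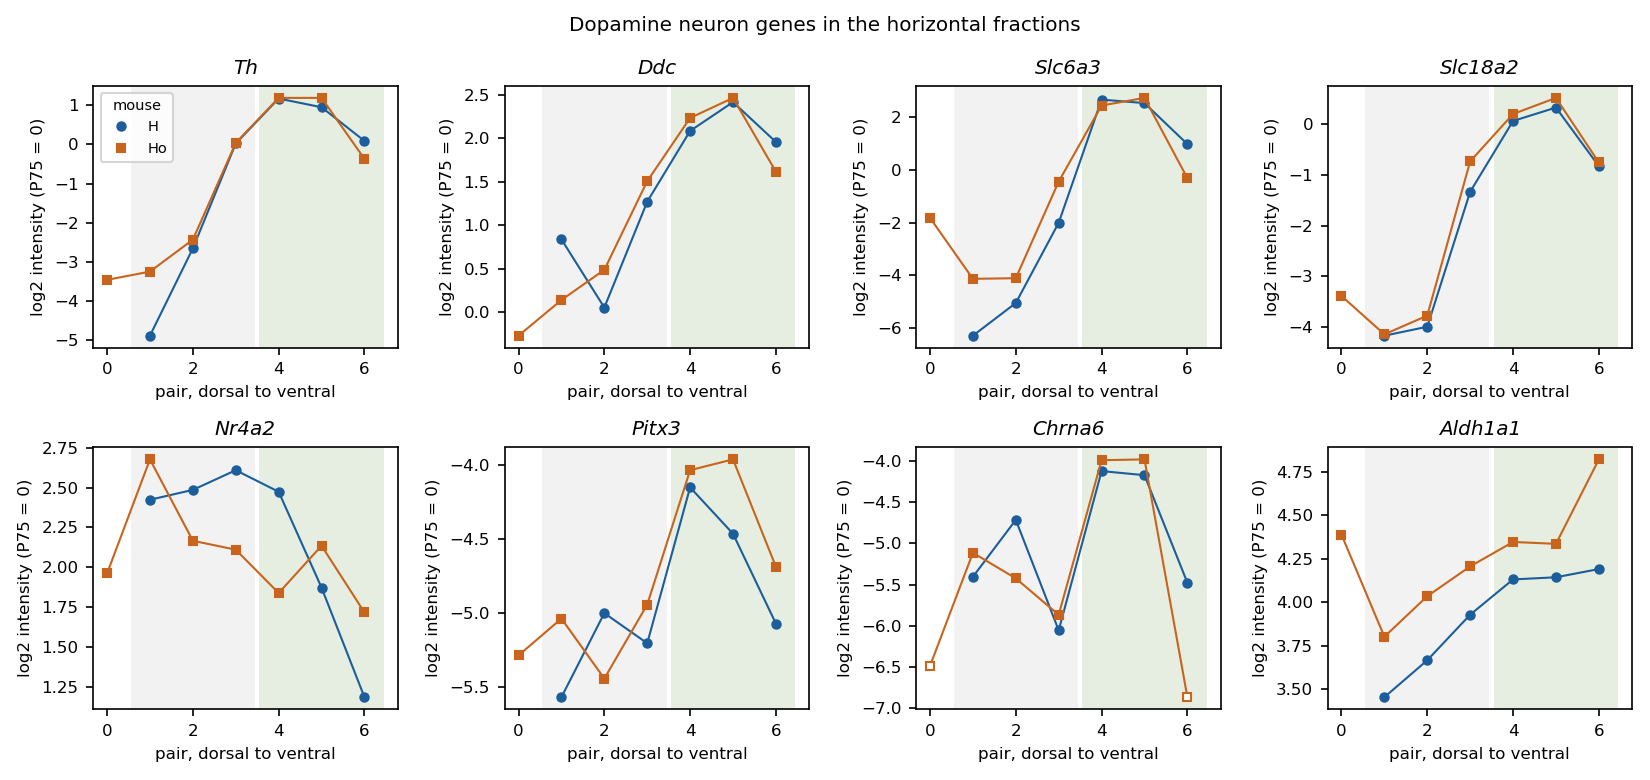
Level of each gene (log2 intensity, 75th percentile of the array = 0) in the horizontal fractions, dorsal to ventral, for H (circles) and Ho (squares, with the unpaired Ho1 before h1); green marks h4 to h6, grey h1 to h3, and open symbols were not well above background. Slc6a3 rose from -2.01 in H3 to 2.65 in H4, and Chrna6 had a second, dorsal rise in H2 (-4.71).

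Profiles of the members were compared over the 61 fractions after the mean of each series was taken from its levels. Ddc and Slc18a2 were the most alike (r = 0.93), followed by Pitx3 and Chrna6 (r = 0.85). Chrna6 was well above background on 35 of the 61 arrays, which limits its correlations. Th and Slc6a3 had r = 0.74, but in the coronal plane, where Th peaked in C13 and Co15 and Slc6a3 in C6 and Co7, r = 0.56. Th and Slc18a2 had r = 0.96 in the horizontal and 0.07 in the coronal plane. These correlations describe fractions that share mice and slides.

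Outside the members, the genes most like Slc6a3 were Foxa2 (r = 0.80), a forkhead factor of the ventral midbrain, Gstm6 (0.77), Hap1 (0.77), Cartpt (0.76), a neuropeptide precursor, and Wdr6 (0.76). Foxa2 peaked in C6 and Co7, in the same fractions as Slc6a3, but in S5 and So6 in the sagittal plane, where Slc6a3 peaked in S4 and So7. Those most like Th were Art4 (r = 0.90), Egf (0.88), Fstl5 (0.88), Pbx3 (0.88) and Sp7 (0.87), and each of these peaked in the C12 or C13 fraction of the C brain. Art4 and Foxa2 were well above background on 34 and 37 arrays, which limits their correlations.

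Genes of the wider pathway were counted from lists of fixed membership. Of 5 genes of tetrahydrobiopterin synthesis and recycling, which supply the cofactor of Th, 2 were higher at the midbrain level (5.22% of all probes) and 1 higher and 1 lower at the rostral end (17.4% and 19.2% of all probes), which at the rostral end is near the share over all probes. Gch1, the first enzyme of that synthesis, had the largest difference at both places, 1.29 ± 0.25 (adjusted p = 0.000611) and 1.31 ± 0.29 (SE, log2, adjusted p = 0.000436, limma), and Pts the smallest at the midbrain level (0.00 ± 0.14).

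Of 5 dopamine receptors, 3 were lower at the midbrain level (6.3% of all probes) and all 5 at the rostral end (19.2% of all probes), though Drd3 was well above background on 0 of 4 rostral and 2 of 8 forebrain arrays. All 5 striatal medium spiny neuron genes were lower as well at both places. Drd1 was lowest at the midbrain level (-2.79 ± 0.28) and Drd2 at the rostral end (-3.04 ± 0.30, SE, log2).

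Of 14 genes of midbrain dopamine neuron identity, 8 were well above background on all 14 arrays of the midbrain comparison, and of these 4 were higher and 0 lower (limma, also 0 of the 14 lower at an unadjusted p under 0.05), where 5.22% of all probes were called higher. A further 4, Foxa1, Foxa2, En1 and Ret, were called higher but lay below that mark on some of the arrays. At the rostral end 0 of the 14 were higher (also 0 at an unadjusted p under 0.05) and 7 lower, where 17.4% and 19.2% of all probes were called. Of the 14, 7 were well above background on all 12 arrays of that comparison, and 6 of these were lower. Chrnb3, the other gene called lower, was below that mark on some arrays. Foxa2 had the largest midbrain difference (5.11 ± 0.33, SE, log2, adjusted p = 5.71e-12, limma) and Kcnj6 the smallest (-0.20 ± 0.14). Foxa2 was well above background on 6 of 6 midbrain and 5 of 8 forebrain arrays, which limits its value. Of 6 genes of olfactory bulb dopamine neuron specification, 5 were higher at the rostral end (17.4% of all probes), with a median of 1.77, led by Sall3 (2.98 ± 0.16, SE, log2, adjusted p = 3.26e-15, limma), and Nr2f1 was the lowest (-0.44 ± 0.19). At the midbrain level 1 of these 6 was higher (5.22% of all probes) and 2 were lower (6.3%).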

How the data were processed

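The authors deposited the intensity of every spot of 61 one-color Agilent arrays, background-subtracted by Agilent Feature Extraction (version 9.1 per the submitters' processing notes), and also their own table of the same intensities after normalization of each array, used here only as an alternative. The array design number in the files differs from that in the paper's methods, and names were taken from the files. Of the columns of that table, 0 were left unused. The labels number the S fractions from 2, and they were renumbered from 1 as in the study. The set named in the label of S9 conflicts with its mouse number, and S9 was placed by its title and mouse number.

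From 43379 non-control spots, log2 values were averaged over the spots of 41174 probes, without 2299 spot values marked as outliers, and reduced by the 75th percentile of the array. Probes well above background on at least 1 array (36573) were tested with limma 3.58.1 in R 4.3.3 (lmFit over the 28 pairs, eBayes, Benjamini-Hochberg adjustment over all probes tested). The study paired fractions by the highest correlation of their probe values, which can narrow the spread within pairs. Its methods used an ANOVA over these pairs, and a fit without moderation on the values scaled here was an alternative, on other input than theirs. The median SD between spots of a probe, where a probe had more than 1, was 0.06 (log2). It does not cover the spread between arrays, slides or mice. In the fit with the slide as a random block, the consensus correlation within slides was 0.54. The fractions of a plane come from 2 mice, so that p-values measure the spread between paired slabs and do not cover more animals. Replicate numbers mark the mouse, which pairs the samples, and the deviations from pair means of fractions of the same mouse had r above 0.1 in 114 of 129 combinations (median r = 0.28).

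The members, lists and comparisons were chosen with earlier results of these data known. The genes named are the members, the genes with the largest and smallest change of a list, and the 5 genes most like Slc6a3 and Th among 13336 genes well above background on at least 10 arrays. Chrnb3, Tbx21 and Hcrt were named after their values were seen. The fit was tested on simulated data with independent errors. These held no correlation by mouse or slide, so that the simulation does not give the error rate of the calls made here. Tables and figures used Python 3.11.15, numpy 2.4.6, pandas 2.3.3 and matplotlib 3.10.9. The alternatives were other scalings, filters, pairings, boundaries and probes, blocks for mouse, slide and scan day, and leaving out each array.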

Additional observations from a re-analysis of the deposited data

How the results depend on the processing

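Leaving out each array in turn kept 8 members called at the midline and 7 each at the midbrain and hindbrain levels, and gave 7 to 8 for the variation over the pairs, 5 to 7 ventrally and 2 to 4 at the rostral end, where 2 remained without Co15. With fractions paired by their label number, 4 members were called at the midbrain level, 4 at the hindbrain level, 1 at the rostral end and 4 ventrally. Of all probes, that pairing called 1183 higher and 1369 lower at the midbrain level (of 36528), and 9371 and 6672 at the hindbrain level (of 36534). It called 1518 and 1728 at the rostral end (of 36547), and 1607 and 717 ventrally (of 36553). With slide as a fixed term the counts of members were 4, 1, 2 and 3 in that order. Of all probes, that fit called 200 higher and 190 lower at the midbrain level (of 36532), and 2499 and 2837 at the hindbrain level (of 36537). It called 4739 and 6063 at the rostral end (of 36537), and 798 and 604 ventrally (of 36554). Sagittal pairs alone gave 5 members varying, where 2392 of 36568 probes were called. Horizontal pairs alone gave 5, where 4611 of 36554 probes were called. The mouse as a replicate block gave 8 members called at the midbrain level and changed no other call of a member, and it raised the probes called higher at that level from 1907 to 4066, while the slide as a fixed block left 200. Scaling to the median turned the split of higher and lower probes from 10457 and 7474 to 7695 and 9640 at the hindbrain level, from 3840 and 3323 to 2620 and 5642 at the midline, and from 2704 and 1888 to 2044 and 2555 ventrally, and it ended the call of Chrna6 ventrally (0.61, adjusted p = 0.0842, limma). Signs turned as follows. Pitx3 at the hindbrain level (0.02) became -0.10 with median scaling, -0.11 in the authors' table, -0.055 with normexp and quantile normalization, -0.14 with pairs by label number, -0.22 and -0.044 with the slide as a fixed and a random block, -0.051 over c2 to c4, and -0.045 to 0.091 over leaving out each array. Of called differences at the hindbrain level, Th (0.87) became -0.077 and Ddc (0.45) -0.17 with the slide as a fixed block. At the rostral end that block gave Ddc 0.17 and Aldh1a1 0.19, the slide as a random block gave Aldh1a1 0.019, c13 alone gave Ddc 0.071, Nr4a2 0.069 and Aldh1a1 0.14, normexp gave Chrna6 0.049, pairs by label number gave Slc18a2 -0.55, against a called 0.95, and leaving out each array gave Nr4a2 -0.48 to 0.19 and Aldh1a1 -0.12 to 0.023. The cause was not tested. Of 662 member differences and F values under the other alternatives, 595 kept their direction and call. Background limits Chrna6, which was well above it on 35 of 61 arrays, Foxa2, on 37, and Art4, on 34.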

Other observations

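Slc6a3 was higher in the end fraction of a series than in the next one inward at 7 of 12 ends and lower at 5. It stood at -1.03 in So1, -3.09 in So2 and -4.05 in So3, at 0.87 in So10 and -0.72 in So9, and at -1.82 in Ho1 and -4.13 in Ho2. In the coronal series it stood at -1.50 in Co1, -3.35 in Co2 and -5.08 in Co3, and at -3.14 in C1 and -4.67 in C2. The remaining higher ends were S1 (-3.77 against -4.49 in S2) and C13 (1.12 against 0.87 in C12). The lower ends were H1 (-6.28 against -5.04 in H2), S9 (-1.38 against -0.99 in S8), H6 (0.97 against 2.52 in H5), Ho7 (-0.32 against 2.72 in Ho6) and Co16 (1.47 against 1.52 in Co15). Of the end fractions named, So1, Ho1, Co1 and Co16 have no partner and entered no test. Other members were higher in the end fraction at 9 of 12 ends (Aldh1a1), 7 (Ddc), 6 (Slc18a2 and Pitx3 each), 4 (Chrna6) and 3 (Th and Nr4a2 each).

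Slc18a2 differed by 2.75 (log2) between the partners of a coronal pair, with -3.93 in C1 and -1.18 in Co2. The Nr4a2 level in the sagittal brains was higher in So than in S in 1 of 9 pairs, with a mean difference of -0.67 ± 0.64 (SD, log2, So minus S), whereas it was higher in Co than in C in 13 of 13 pairs. No test was made of these differences between mice.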
